A study of Harpegnathos saltator with 36 samples.

Results

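The muscle genes followed here, 7 in number, encode parts of the contractile apparatus and were measured in ovaries and brains of the ant Harpegnathos saltator. They were troponin T (LOC105181245), troponin C (LOC105182806), actin, muscle (LOC105188753), a pair of genes named muscle-specific protein 20 (LOC105181811 and LOC105189473), paramyosin (LOC105191565) and muscle LIM protein Mlp84B (LOC105184102). These 7 of 12654 genes were chosen by identifier, after ovary values of gamergates had been seen. In the ovary, the values of gamergates against workers and against revertants are therefore given as a description, with no test, as is the comparison of both tissues in gamergates.

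Gamergates were workers that became egg-laying reproductives in a colony without a reproductive female. Revertants were gamergates that were transferred to an established colony, were policed there and lost reproduction, and workers had not become reproductive. The ants were about 6 months old, no genotype or agent is named for any caste, each library held the RNA of a single ant, and each caste gave 4 ovary and 4 brain libraries, 24 in all. Revertants came from another colony than workers and gamergates, so caste and colony cannot be told apart in comparisons with revertants. The library names place the ovary libraries on one sequencing lane and the brain libraries on another, so tissue and lane cannot be told apart either. The p-values measure the spread between libraries of one caste, each made from a single ant. Libraries of one caste also differed in total counts, so this spread is not one between ants alone.

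Muscle contracts when thick filaments of myosin pull on thin filaments of actin within the sarcomere, whose ends are the Z-discs. Calcium released inside the fibre binds troponin C, and troponin T couples that switch to the thin filament. In Drosophila, muscle sheaths wrap the ovarioles and the whole ovary and move eggs along, whereas the central brain has no muscle of its own and lies close to the muscles of the head. Levels here are relative to all reads of a library. In whole tissue, fewer muscle cells, less muscle RNA per cell and more RNA from other cells therefore cannot be told apart.

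Total counts ranged from 1663266 to 23882325 in ovary libraries and from 1339043 to 12917125 in brain libraries. Libraries fell on either side of 3500000 counts. Over this limit were all 4 gamergate ovaries, revertant ovaries 2 and 3 and worker ovary 3, and in the brain all 4 revertants and workers 1 and 3. Brains held 2761 to 5580 CPM (reads of a gene scaled to the same total per library, after TMM scaling within a tissue) of 8 neuronal genes such as synapsin and complexin, and ovaries held 120 to 278 CPM. The 3 genes of the germline list (tudor domain-containing protein 7, vitellogenin receptor and piwi-like protein Siwi) summed to 921 to 2859 CPM in ovaries and 292 to 416 CPM in brains. In all ovaries of gamergates 1 neuronal gene was at 0, as was 1 in all ovaries of revertants, and each of the other markers had reads in every group.

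The muscle genes made up a small share of all reads, and among ovaries that share was lowest and most even in gamergates. In gamergate ovaries 1 to 4 it was 0.00533%, 0.00674%, 0.00544% and 0.00663% of the library. In revertant ovaries it was 0.0756%, 0.0237%, 0.0181% and 0.0586%, and in worker ovaries 0.118%, 0.188%, 0.0184% and 0.146%. The means were 0.00603% ± 0.000755 in gamergates, 0.0440% ± 0.0277 in revertants and 0.118% ± 0.0722 in workers (SD, n = 4 each). The highest share was 1.27 times the lowest among gamergate ovaries, 4.18 times among revertant ovaries and 10.2 times among worker ovaries. Gamergate ovary 2, whose share had the widest relative interval of these 4, held 361 reads of the 7 genes (95% exact binomial interval 0.00606% to 0.00748%), and worker ovary 3, the lowest worker, held 1383 (0.0174% to 0.0194%). Gamergate ovaries did not overlap with those of the other castes, and worker ovary 3 lay among the revertants.

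**Figure D1:**
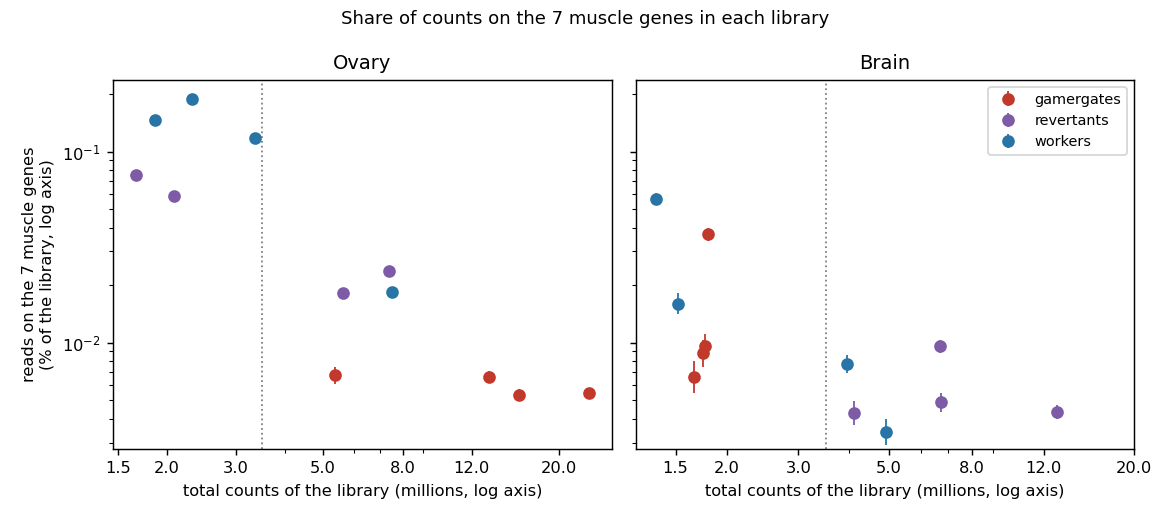
Share of reads on the 7 muscle genes (%, log axis) against the total counts of each library (log axis), in the ovary (left) and the brain (right). Points are single libraries with exact 95% binomial intervals, and the dotted line marks 3500000 counts. The 4 gamergate ovaries sit between 0.00533% and 0.00674%, below all other ovaries, and within the brain the highest points are worker 4 at 0.0564% and gamergate 3 at 0.0370%.

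Troponin T had 4.53, 5.19, 4.78 and 4.98 CPM in gamergate ovaries 1 to 4, against 56.9, 15.8, 14.8 and 33.1 CPM in revertant ovaries and 121, 177, 20.4 and 158 CPM in worker ovaries. Troponin C, the calcium sensor, had few reads, at 0.378, 0.998, 0.717 and 0.601 CPM in gamergate ovaries, against 1.67, 1.33, 1.78 and 3.09 CPM in revertant ovaries and 3.42, 3.04, 2.14 and 6.88 CPM in worker ovaries. For both troponins every gamergate was below every revertant and every worker, although troponin C rested on 3 to 15 reads per ovary library. Its count of 3 in the smallest revertant ovary was at the floor.

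Actin, muscle, the building block of the thin filament, spanned the widest range. It had 1.97, 1.60, 1.10 and 1.63 CPM in gamergate ovaries, against 56.9, 7.18, 9.26 and 40.6 CPM in revertant ovaries and 191, 254, 16.6 and 224 CPM in worker ovaries. Between 8 and 26 reads per gamergate ovary stood behind these values, against 52 to 102 reads in revertants and 116 to 724 in workers. Reads of actins with near-identical sequences could be shared between them, depending on how multiply aligned reads were counted.

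Muscle-specific protein 20 is a calponin-like protein that binds actin, described in Drosophila muscle. Its gene LOC105181811 had 5.22, 6.79, 4.16 and 5.50 CPM in gamergate ovaries, against 53.0, 15.2, 7.84 and 78.6 CPM in revertant ovaries and 49, 135, 10.1 and 71.1 CPM in worker ovaries. LOC105189473 was at 28.8, 31.1, 25.4 and 32 CPM in gamergate ovaries, against 197, 61.3, 51.3 and 124 CPM in revertant ovaries and 337, 543, 73.3 and 334 CPM in worker ovaries. Both genes had the same order of castes by mean, and revertants and workers overlapped for both.

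Paramyosin forms the core of thick filaments in invertebrate muscle. It had 16.9, 19.0, 18.9 and 23.9 CPM in gamergate ovaries, against 259, 102, 75.4 and 189 CPM in revertant ovaries and 249, 377, 48.9 and 319 CPM in worker ovaries. Muscle LIM protein Mlp84B, a protein of the Z-disc in Drosophila, had 5.82, 7.39, 6.98 and 6.96 CPM in gamergate ovaries, against 77.0, 30.1, 21.6 and 70.6 CPM in revertant ovaries and 92.2, 171, 25.8 and 132 CPM in worker ovaries. Of the 7 genes, all 7 had every gamergate ovary below every worker ovary and below every revertant ovary, and for all 7 the revertants and workers overlapped.

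**Figure D2:**
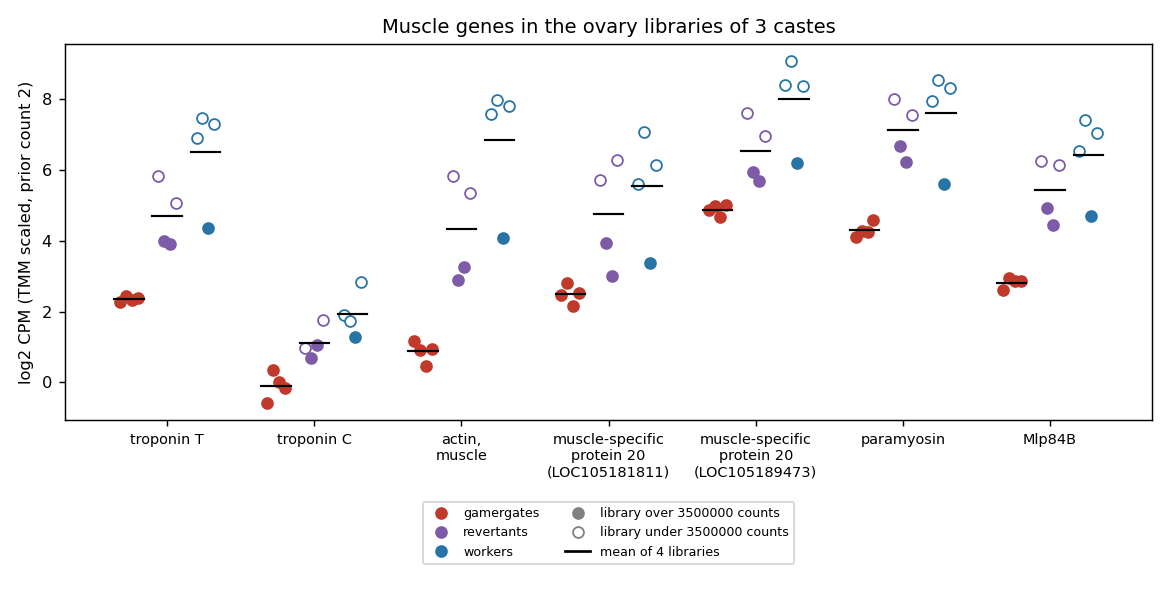
Log2 CPM (TMM scaled, prior count 2) of the 7 muscle genes in each ovary library, with gamergates (red), revertants (purple) and workers (blue) side by side for each gene. Filled points are libraries over 3500000 counts, open points those under it, and bars are means of 4 libraries. Gamergates form a tight low group for each gene, and the filled revertant and worker points lie below the open ones except for troponin C.

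On the log2 scale the ovary differences of gamergates relative to workers were −6.92 for actin, muscle (standard error 0.85), −4.75 for troponin T (standard error 0.61), −4.09 for Mlp84B, −3.80 for paramyosin, −3.76 and −3.60 for the genes of muscle-specific protein 20 (LOC105181811 and LOC105189473) and −2.62 for troponin C. Relative to revertants they were −4.30 for actin, muscle, −3.14 for paramyosin, −3.02 for Mlp84B, −2.99 and −2.03 for LOC105181811 and LOC105189473, and −2.75 for troponin T, while troponin C did not pass the filter on low counts. Both comparisons share the gamergate libraries. Among all genes tested, 28.9% of 9267 were lower in gamergates than in workers at an adjusted p under 0.05 and 29% of 9228 lower than in revertants. Groups that did not overlap, with gamergates below, were seen for 21.5% in each comparison. The calls against workers split into 2725 higher and 2681 lower genes after TMM scaling, and into 2071 and 3209 when totals alone set the scale. Because the ovary values chose the genes, nothing is read from their number against these shares.

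The 7 genes did not differ by the same factor. Actin, muscle took 2.31% ± 0.555 of the reads of the 7 genes in gamergate ovaries, against 5.95% ± 2.32 in revertant ovaries and 15.0% ± 4.61 in worker ovaries (SD, n = 4 each). LOC105189473 took 42.9% ± 1.79 in gamergate ovaries, against 26.4% ± 2.39 in revertants and 32.3% ± 4.24 in workers. Paramyosin took 28.7% ± 2.69 in gamergate ovaries, against 39.3% ± 4.01 in revertants and 24.3% ± 1.24 in workers. For LOC105189473 the gamergate range of 41% to 45.2% lay above that of the workers, 26.8% to 37.2%, and for paramyosin the revertant range of 35% to 43.8% lay above the other castes. Because these shares add up to the total of the 7 genes, a lower share of one raises the others.

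Library size went along with the levels in revertants and workers. In the 3 larger of these 8 ovary libraries, actin, muscle had 7.18 to 16.6 CPM, against 40.6 to 254 CPM in the 5 smaller ones, and troponin T had 14.8 to 20.4 CPM, against 33.1 to 177 CPM. Paramyosin had 48.9 to 102 CPM in the larger libraries, against 189 to 377 CPM in the smaller ones. For 6 of the 7 genes every larger library was below every smaller one, with troponin C the exception, and so it was for 14% of the 8667 genes tested between revertants and workers. Genes of the germline list were split. Vitellogenin receptor (LOC105182956), which takes up yolk into the oocyte and held most of that list's reads, went the other way, with 1454 to 2087 CPM in the 3 larger libraries, against 157 to 551 CPM in the 5 smaller ones, and 1603 to 1826 CPM in gamergate ovaries. Piwi-like protein Siwi (LOC105184384) went with the muscle genes, with 145 to 166 CPM in the larger libraries, against 241 to 324 CPM in the smaller ones, and 58.7 to 86.7 CPM in gamergate ovaries. Tudor domain-containing protein 7 (LOC105182385) overlapped between castes, with 443 to 515 CPM in gamergate ovaries, 456 to 627 CPM in revertants and 463 to 697 CPM in workers. Of the 3 genes Siwi was the 1 called between castes, lower in gamergates at −1.84 against workers and −1.62 against revertants. The part of these genes in the muscle differences was not tested.

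Since all 4 gamergate ovaries were larger libraries, the differences were also taken among larger libraries alone, an alternative chosen after seeing the data. Relative to worker ovary 3, the lone worker there, which is assumed to vary like the other groups, gamergates had a log2 difference that ranged from −3.46 for actin, muscle to −0.99 for LOC105181811. Relative to revertant ovaries 2 and 3 the range was −2.49 for actin, muscle to −1.05 for LOC105189473. These are smaller than the differences over all libraries, and they keep gamergates lowest and actin, muscle as the gene with the widest gap.

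Markers of other cells also differed between castes in the ovary. The 3 genes of the hemocyte list, hemocytin, peroxidasin and hemocyte protein-glutamine gamma-glutamyltransferase, summed to 125 to 147 CPM in gamergate ovaries, against 103 to 216 CPM in revertants and 168 to 380 CPM in workers. In gamergates 3 of 3 were lower than in workers and 2 of 3 lower than in revertants, where 28.9% and 29% of all genes were lower. The summed level overlapped between gamergates and revertants, as did hemocytin, at 103 to 131 CPM in gamergates and 69.5 to 156 CPM in revertants. Peroxidasin did not overlap between them, like the muscle genes. It had 12.4 to 18.2 CPM in gamergates, against 27.1 to 45.9 CPM in revertants and 48.1 to 128 CPM in workers. Among revertants the sum was highest in ovary 2, at 216 CPM, and was 150 CPM in ovary 1, which had the highest muscle share. None of the 3 was at 0 in a whole group, and their part in the result was not tested. The sum of the fat body list, 6 genes of yolk and storage proteins, ranged from 767 to 3103 CPM in gamergate ovaries, against 22.5 to 1172 CPM in revertants and 33 to 1269 CPM in workers. Most of it was vitellogenin-like (LOC105181726), which was not called, and of the genes tested against workers gamergates had 1 higher and 2 lower, and of those tested against revertants 1 higher and 1 lower.

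Revertant ovaries were next compared with worker ovaries, to ask whether muscle transcripts of ants that had lost reproduction stood apart from those of ants that never had it. In edgeR's quasi-likelihood test over 8667 genes, 0% were called in either direction (0 genes, with 377 at an unadjusted p under 0.05), while DESeq2 called 18 genes higher and 11 lower. Troponin C did not pass the filter on low counts. None of the other 6 muscle genes was called with either tool, and 3 of them had an unadjusted p under 0.05 in edgeR's test. Actin, muscle had the widest gap, at −2.63 on the log2 scale (adjusted p = 1, standard error 0.92), followed by troponin T at −2.01 (standard error 0.68) and LOC105189473 at −1.57. The other 3 lay between −1.08 and −0.66.

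Among the 5 smaller ovary libraries alone, actin, muscle had 56.9 and 40.6 CPM in revertants 1 and 4, against 191, 254 and 224 CPM in workers 1, 2 and 4. All 3 workers were above both revertants. In this added fit actin, muscle was lower in revertants, at −2.15 on the log2 scale (adjusted p = 0.0208 from edgeR, standard error 0.22), where 3 of 8702 genes were lower (0.0345%) and 0.46% were higher. When size class entered one fit of all 12 ovaries it was −1.80 (adjusted p = 0.0124 from edgeR, standard error 0.25), where 0.304% of 9525 genes were lower and 0.357% higher. Over the remaining settings of the same comparison its adjusted p ranged from 0.205 to 1, so the call rested on how library size was treated. Troponin T was at −1.71 (adjusted p = 0.0641) and −1.29 (adjusted p = 0.0575) in the same 2 fits of edgeR, and paramyosin at −0.44 and −0.02, neither past the threshold.

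The wider muscle lists hold 23 other genes with names at hand, of which 12 were named through the study's fat body comparison alone and 11 through its brain comparisons. Lists chosen from such rows are not independent evidence of direction. In the ovary, edgeR called 15 of the 23 lower and 0 higher in gamergates than in workers (16 at an unadjusted p under 0.05, DESeq2 also 0 higher), where 29.4% of all genes tested were higher and 28.9% lower. Their median log2 fold change was −1.96, against −0.01 for all genes. Relative to revertants 16 were lower and 1 was higher, with a median of −1 against −0.01 for all genes, where 28.7% of all genes were higher and 29% lower. Of the 12 named through the fat body alone, 10 were lower in gamergates in each comparison.

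Among thick filament genes, myosin regulatory light chain 2 (LOC105192051), which sits on the neck of the myosin head, had 8.84, 8.19, 6.64 and 10.6 CPM in gamergate ovaries, against 113, 36.2, 29 and 67.5 CPM in revertants and 252, 318, 33 and 275 CPM in workers. In edgeR's test it was lower in gamergates, with a log2 difference of −4.82 against workers (adjusted p = 0.000353, standard error 0.65) and −2.98 against revertants (adjusted p = 0.000674, standard error 0.44). The gene named myosin heavy chain, skeletal muscle (LOC105183261), a motor protein, differed far less. It had 91.4, 81.5, 86.5 and 93.5 CPM in gamergate ovaries, against 131, 124, 124 and 94.4 CPM in revertants and 135, 99.9, 146 and 110 CPM in workers, with a log2 fold change of −0.61 relative to workers (adjusted p = 0.0034 in the same test).

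Of the 12 other genes of the Z-disc and giant proteins, which anchor filaments and hold the sarcomere together, 8 were lower in gamergates than in workers and 4 did not pass the threshold. Titin (LOC105184337), a spring between Z-disc and thick filament, had 97.5, 102, 87.6 and 89.5 CPM in gamergate ovaries, against 1901, 712, 570 and 1345 CPM in revertants and 1721, 3665, 293 and 3256 CPM in workers. It was lower in gamergates, with a log2 difference of −4.71 against workers and −3.75 against revertants. Twitchin (LOC105186648), a giant kinase of the thick filament, was also lower, at −2.64 against workers and −2.16 against revertants, while a second gene named titin (LOC105188265) was at −0.62 relative to workers (adjusted p = 0.0676 from edgeR) and lower, at −1.38, relative to revertants. Filamin-A (LOC105180971), which crosslinks actin in many cell types, was not called, at −0.52 against workers and −0.35 against revertants.

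The list of calcium handling and energy genes was split. Of 9 genes, 5 were lower in gamergates than in workers and 4 were not called. Muscle calcium channel subunit alpha-1 (LOC105183370), a channel subunit named here, like the ryanodine receptor, for its high level in the brain, had 4.46, 11.8, 4.35 and 3.69 CPM in gamergate ovaries, against 64.1, 15.0, 11.6 and 87.8 CPM in revertants and 59.8, 66.8, 8.28 and 66.5 CPM in workers, and was lower in gamergates, at −3.24 on the log2 scale against workers. The ryanodine receptor (LOC105188290), the channel that releases stored calcium, was lower in gamergates, at −1.96 against workers and −0.76 against revertants. The calcium pump of the sarcoplasmic and endoplasmic reticulum (LOC105184991, 0.12), arginine kinase (LOC105188133, −0.21), leucine-rich repeat and calponin homology domain-containing protein 1 (LOC105189406, −0.35) and protein unc-45 homolog B (LOC105191176, 0.17), a chaperone of myosin, gave log2 values relative to workers that did not pass the threshold. Relative to revertants, protein unc-45 homolog B was the 1 gene that was higher, at 0.42 (adjusted p = 0.0141 from edgeR). Between revertant and worker ovaries edgeR called 0 of the 23 genes, with 4 at an unadjusted p under 0.05, and DESeq2 called 0.

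**Figure D3:**
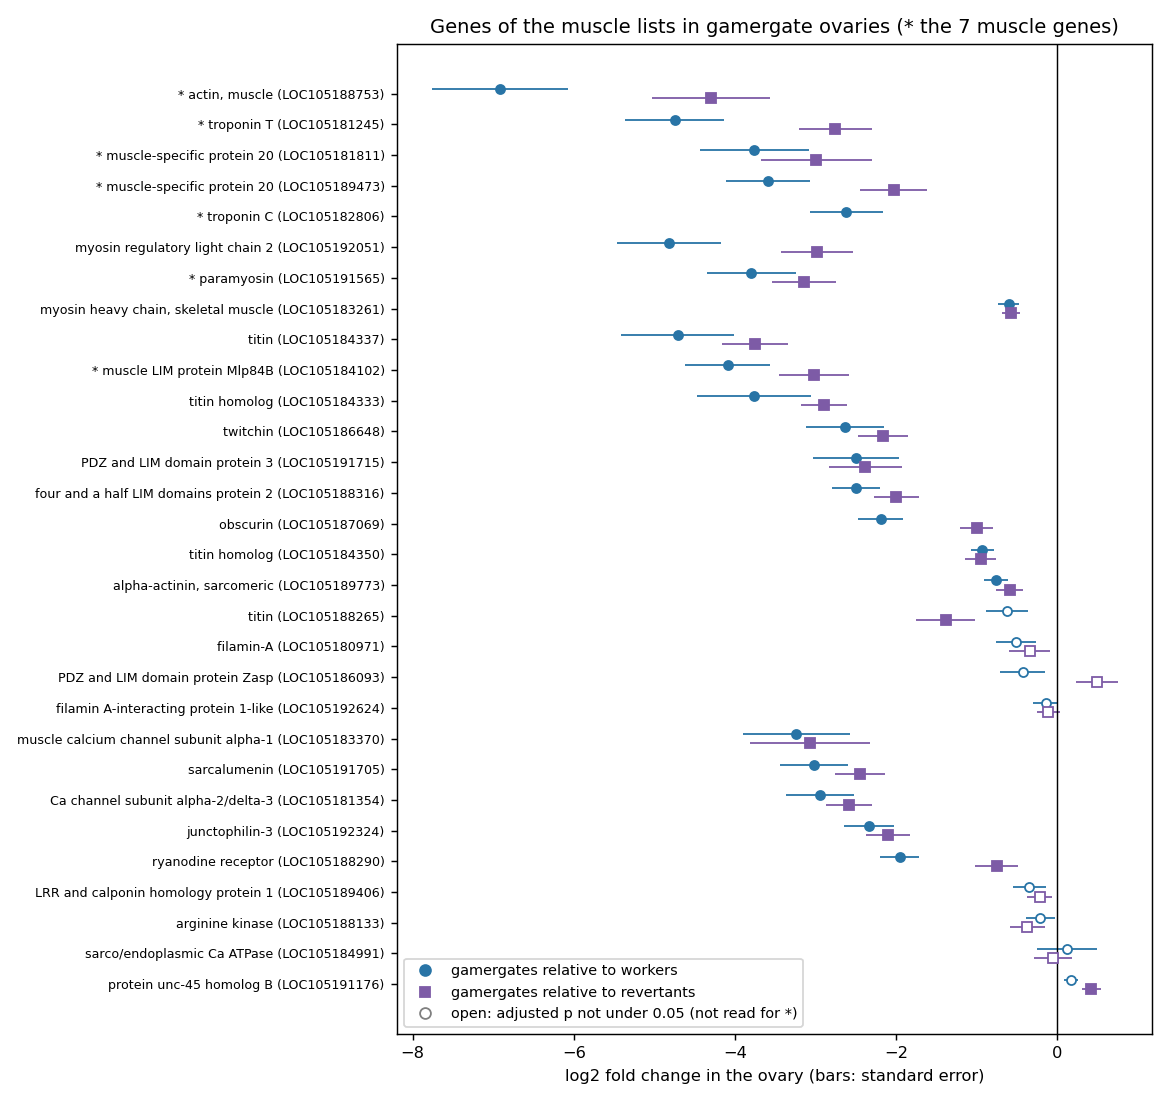
Log2 fold change in the ovary with its standard error for the 7 muscle genes (starred) and 23 other genes of the muscle lists, gamergates relative to workers (circles) and relative to revertants (squares). Filled symbols have an adjusted p under 0.05, which is not read for the starred genes. The values run from −6.92 for actin, muscle to 0.12 for the calcium pump and 0.17 for protein unc-45 homolog B relative to workers.

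Of the 23 genes, 7 also had every larger revertant and worker ovary below every smaller one, among them myosin regulatory light chain 2, titin (LOC105184337) and muscle calcium channel subunit alpha-1, against 14% of genes tested. Titin had 293 to 712 CPM in the larger libraries, against 1345 to 3665 CPM in the smaller ones.

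Because the 8 revertant and worker ovaries fell into these size classes of 3 and 5 libraries, which did not overlap for most of the 7 genes, no coefficient is given across all 8 and the relation could not be tested within a class of at least 6 libraries. As a description, all 21 pairs of muscle genes had a positive Pearson's r over the 5 smaller libraries, from 0.15 to 0.99 with a median of 0.69. These 5 points share their lane and differ in caste. The genes most like the mean of the 7 over the 12 ovaries, by Pearson's r of log2 CPM among 7697 genes and with no test, were an unnamed gene (LOC105191850, 0.996), protein takeout-like (LOC105182645, 0.994) and myosin regulatory light chain 2 (LOC105192051, 0.993). The 8 closest had r of at least 0.988, and 1 of them belongs to the muscle lists. These r pool all castes and both size classes. Gamergate ovaries lay below the others for each of the 7 genes, so these r include that gap.

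In the brain the 7 genes were sparse in most libraries and high in 2, worker 4 and gamergate 3. Their share of reads was 0.00956%, 0.00662%, 0.0370% and 0.00884% in gamergate brains 1 to 4, 0.00957%, 0.00434%, 0.00488% and 0.00430% in revertant brains, and 0.00341%, 0.0160%, 0.00776% and 0.0564% in worker brains. The means were 0.0155% ± 0.0144 in gamergates, 0.00577% ± 0.00254 in revertants and 0.0209% ± 0.0242 in workers (SD, n = 4 each). Castes overlapped for all 7 genes in each of the 3 comparisons.

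Paramyosin carried most of these reads. It took 68.7% ± 7.78 of the reads of the 7 genes in gamergate brains, 72.7% ± 7.60 in revertant brains and 69.8% ± 7.13 in worker brains (SD, n = 4 each), against the 24.3% to 39.3% of the caste means in the ovary. It had 56.0, 47.2, 258 and 54.6 CPM in gamergate brains, 74.0, 39, 32.5 and 34.1 CPM in revertant brains and 29.1, 95.2, 57.8 and 318 CPM in worker brains. Worker 4 and gamergate 3 stood far above the other 10 brains.

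Troponin T had 22.3, 5.62, 32.8 and 11.7 CPM in gamergate brains, 7.78, 1.94, 5.73 and 1.55 CPM in revertant brains and 1.96, 20.9, 11 and 67.9 CPM in worker brains. Mlp84B had 4.89, 5.06, 31.2 and 6.13 CPM in gamergate brains, 9.61, 2.45, 4.18 and 5.16 CPM in revertant brains and 3.26, 7.78, 6.45 and 36.3 CPM in worker brains. The same 2 libraries were the highest for both genes.

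LOC105189473 had 3.26, 0.562, 11.5 and 8.35 CPM in gamergate brains, 7.29, 1.18, 3.25 and 0.516 CPM in revertant brains and 0.869, 9.58, 3.23 and 48.1 CPM in worker brains. The other 3 genes were near the floor of counting. LOC105181811 ranged from 0 to 9.23 CPM, troponin C from 0 to 12.5 CPM and actin, muscle from 0 to 5.27 CPM. In brain libraries 3 reads correspond to 0.232 to 2.24 CPM before TMM scaling. Troponin C had no read in gamergate brains 2 and 4, actin, muscle none in gamergate brain 3 and LOC105181811 none in worker brain 1. Actin, muscle thus had no read in the gamergate brain with the most paramyosin.

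**Figure D4:**
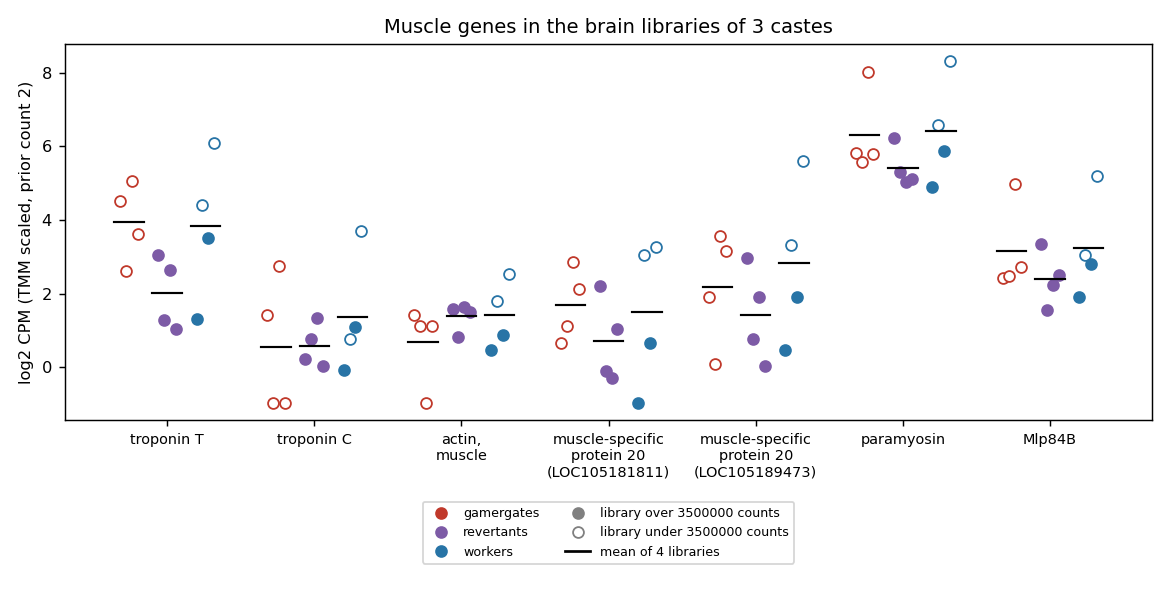
Log2 CPM (TMM scaled, prior count 2) of the 7 muscle genes in each brain library, with gamergates (red), revertants (purple) and workers (blue) side by side for each gene. Filled points are libraries over 3500000 counts, open points those under it, and bars are means of 4 libraries. The highest open points of gamergates and workers for paramyosin and Mlp84B are gamergate 3 and worker 4, and the castes overlap for every gene.

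Between gamergate and worker brains, 4 of the 7 genes passed the filter on low counts and none was called by edgeR or DESeq2, with 0 at an unadjusted p under 0.05. Their log2 fold changes were −1.18 for LOC105189473, −0.35 for troponin T, −0.21 for paramyosin and −0.01 for Mlp84B, with standard errors from 0.75 to 1.08. Of all 8481 genes tested, 0.33% were higher and 0.719% lower, 28 and 61 genes, against 303 and 547 genes without worker 4 and 10 to 17 and 13 to 27 genes without worker 1 or 3 or any one gamergate. Among the 6 smaller brains 2.51% of 8677 genes were higher and 2.11% lower, and none of the 6 muscle genes tested there was called. LOC105189473 was at −2.25 (adjusted p = 0.0655 from edgeR) and troponin T at −1.27.

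Between gamergate and revertant brains 4 of the 7 genes passed the filter, and troponin T was higher in gamergates by 2.11 on the log2 scale (adjusted p = 0.00825 from edgeR, standard error 0.57), where 27.4% of 8987 genes were higher and 29.9% lower, 2466 against 2691 genes. That split was 3474 against 1945 genes when totals alone set the scale. Paramyosin (1.22, adjusted p = 0.0595), Mlp84B (1.21, adjusted p = 0.119) and LOC105189473 (0.97, adjusted p = 0.3) were not past the threshold in this test. All gamergate brains were smaller libraries and all revertant brains larger ones, so caste and library size cannot be told apart in this pair alone. When size class entered one fit of all 12 brains, troponin T was at −0.71 (adjusted p = 0.792 from edgeR), where 0.448% of 9148 genes were higher and 0.35% lower. In one fit of 3 castes without that term it was 2.10 with an adjusted p of 0.06 from edgeR. Paramyosin was also past the threshold under 3 other settings, with upper quartile scaling (1.31, adjusted p = 0.0445 from edgeR), with totals alone as the scale (1.41, adjusted p = 0.0308) and with at least 10 counts in every library (1.22, adjusted p = 0.0487). It was at 0.26 without gamergate 3 (adjusted p = 0.449 from edgeR), and it was past the threshold when gamergate 1, 2 or 4 or revertant 1 was left out, at 1.44 to 1.58 (adjusted p = 0.0281 to 0.0492).

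Between revertant and worker brains 5 of the 7 genes passed the filter and edgeR called none, with 2 at an unadjusted p under 0.05, nor did DESeq2. EdgeR called 0% of 9360 genes in either direction (0 genes, with 1521 at an unadjusted p under 0.05), and DESeq2 called 44 higher and 14 lower. On the log2 scale troponin T was at −2.50 (adjusted p = 0.298 in edgeR's test, standard error 0.91), LOC105189473 at −2.20, paramyosin at −1.47, Mlp84B at −1.25 and actin, muscle at −0.05. Among the 6 larger brains troponin T was at −0.57 and paramyosin at 0.06. The difference of revertants to workers was not shown to vary between ovary and brain for any of the 7 genes. Over both tissues the interaction for actin, muscle was −2.63 (adjusted p = 0.716 from edgeR, 0 of 9798 genes called).

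Markers of other tissues varied in the brain as well. The fat body list summed to 15560 to 62550 CPM in gamergate brains, against 490 to 3193 CPM in revertant brains and 191 to 2524 CPM in worker brains. The sum was 20030 CPM in gamergate brain 3 and 191 CPM in worker brain 4, the lowest of all brains. Most of it was vitellogenin-like (LOC105181726), at 15450 to 61160 CPM in gamergate brains. All genes of this list were named through the study's comparisons of these same brains, so its difference between castes is not independent evidence. The neuronal list was at 2761 to 2976 CPM in gamergates, against 4567 to 5580 CPM in revertants and 2967 to 4962 CPM in workers. Its genes were lower in gamergates than in revertants in 8 of 8 cases, where 29.9% of all genes were lower and caste cannot be told apart from library size. Most of these 8 were named through the study's comparisons of these same brains, so the number is not independent evidence. No gene of either list was at 0 in a whole group of brains, and the part of both lists in the muscle values was not tested.

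Of the 23 other muscle list genes, 22 were tested between gamergate and worker brains, and 1 was higher and 0 lower in edgeR's test, with 8 at an unadjusted p under 0.05, while DESeq2 called 1 lower. The higher one was myosin heavy chain, skeletal muscle (LOC105183261), with 175, 207, 190 and 173 CPM in gamergate brains, 93.4, 85.1, 88.6 and 90.1 CPM in revertant brains and 87.6, 130, 88.7 and 132 CPM in worker brains. Every gamergate was above every revertant and every worker, by 0.79 on the log2 scale against workers (adjusted p = 0.0478 from edgeR, standard error 0.16) and 1.07 against revertants (adjusted p = 3.13e-06). Among the smaller brains alone, with workers 2 and 4, the gene was higher in gamergates by 0.51 (adjusted p = 0.0127 from edgeR, standard error 0.10). There 2.51% of 8677 genes were higher. Its name came through the study's brain comparisons, which used these same brains, and the call against workers was lost (0 genes) without worker 1 or 3 or without any single gamergate. Between gamergates and revertants 4 of the 23 were higher and 10 lower, where 27.4% of all genes were higher and 29.9% lower, and none was called once size class entered the fit. Between revertants and workers edgeR and DESeq2 called 0, with 3 at an unadjusted p under 0.05 in edgeR's test.

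Titin (LOC105184337) followed the 7 genes most closely in the brain, with Pearson's r of 0.936 to their mean over 12 libraries among 8059 genes, given as a description. It had 283, 84.9, 1368 and 176 CPM in gamergate brains, 156, 33, 60.3 and 26.1 CPM in revertant brains and 35.9, 311, 79.0 and 1389 CPM in worker brains. Worker 4 and gamergate 3 were again the highest. Golgin subfamily A member 6-like protein 22 (LOC105188520) and myosin regulatory light chain 2 (LOC105192051) had r of 0.896, and the 8 closest genes had r of at least 0.885. These r pool all castes and both size classes.

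Among the 6 smaller brains, 2 of the 21 pairs of the 7 genes had a correlation with an adjusted p under 0.05. The adjustment ran over 63 pairs in 3 sets of libraries, of which 21 were those of the 8 revertant and worker ovaries. Of those ovary pairs 13 passed, which lowers the adjusted p of the brain pairs. No adjustment over the smaller brains alone was made, so the 2 calls are not shown for this set by itself. For scale, the r of the other 6 genes with troponin T had a median of 0.84 and a minimum of 0.15 in this set, and 2.34% of 8006 genes reached that median and 38.8% that minimum. Troponin T and troponin C had Pearson's r of 0.95 (exact permutation test, two-sided, p = 0.0028, adjusted p = 0.0159) and Spearman's rho of 0.99 (p = 0.0056, adjusted p = 0.0389 by exact permutation), and r was 0.99 without the 2 libraries farthest from the median. Troponin C had 2 and 19 reads in worker brains 2 and 4, and 4, 0, 12 and 0 reads in gamergate brains 1 to 4. The r of this pair thus rests on counts near the floor. Paramyosin and Mlp84B had r of 0.99 (exact permutation p = 0.0056, adjusted p = 0.0269), with 0.89 without the 2 farthest libraries, and rho of 0.83 (p = 0.0583, adjusted p = 0.147 by exact permutation). The number of pairs fell to 0 without worker 4, without gamergate 3 or without worker 2. It was 1 without gamergate 2 or gamergate 4 and rose to 8 without gamergate 1. Leaving out a library also raises the smallest possible p, so a fall to 0 cannot be read as resting on one ant. Among the 6 larger brains 0 of 21 pairs passed, with r from −0.17 to 0.89. With 6 libraries the smallest possible permutation p of Spearman's rho without ties is 0.00278.

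The ovary was finally set against the brain within a caste, on counts scaled together. In revertants, edgeR placed 5 genes higher in the ovary, apart from LOC105181811, where 33% of 9768 genes were higher and 32.4% lower. The log2 fold changes were 4.92 for LOC105189473 (standard error 0.74), 3.48 for actin, muscle, 3.02 for Mlp84B, 2.57 for troponin T and 1.59 for paramyosin, with adjusted p from 0.000432 to 0.0104. Troponin C was at 0.50 (adjusted p = 0.384 from edgeR). LOC105181811 had 25, 5, 2 and 6 reads in revertant brains and did not pass the filter in comparisons between brains, so it entered this fit through the ovary libraries, and its value of 4.44 is a description.

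In workers, LOC105189473 was higher in the ovary at 4.46 (adjusted p = 0.00496 from edgeR) and Mlp84B at 3.00 (adjusted p = 0.00856), where 31% of 9100 genes were higher and 26.7% lower. Actin, muscle had 4, 5, 5 and 8 reads in worker brains and LOC105181811 had 0, 13, 4 and 14. Neither passed the filter between gamergate and worker brains, so they entered this fit through the ovary libraries, and their values of 6.22 and 4.13 are a description of genes near the floor in the brain. Troponin T (2.21, adjusted p = 0.0609) and paramyosin (0.90, adjusted p = 0.33) were not past the threshold in this test. Without worker brain 4, troponin T and paramyosin were at 3.40 (adjusted p = 0.0121 from edgeR) and 1.94 (adjusted p = 0.0364), and troponin T was also past it without worker ovary 3, at 2.65 (adjusted p = 0.0133 from edgeR).

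In gamergates the order differed, given here as a description. Paramyosin and troponin T had lower levels in the ovary than in the brain, with log2 fold changes of −2.63 and −2.13, Mlp84B was at −1.05, LOC105181811 at 0.41 and LOC105189473 at 2.06, where 45.3% of 9370 genes were called higher and 39.5% lower. Actin, muscle and troponin C did not pass the filter there. Of the 23 other genes of the muscle lists, 3 were higher and 14 lower in gamergate ovaries than in gamergate brains, 8 higher and 9 lower in revertants, and 7 higher and 6 lower in workers, and the calcium handling and energy genes among them were called lower or not at all in each caste. The ryanodine receptor, which neurons also use, had log2 fold changes of −6.52 in gamergates, −6.29 in revertants and −4.89 in workers.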

How the data were processed

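RNA sequencing counts of 24 libraries were used, 12 from central brains without optic lobes and 12 from whole ovaries, with 4 gamergates, 4 revertants and 4 workers for each tissue. The groups were taken from the labels. Fat body libraries, 12 in number, were not used here. The authors built dUTP strand-marked libraries from polyA RNA, trimmed reads with Trimmomatic, aligned them with STAR (version 2.5.3a in the submitters' processing notes) and deposited raw counts of reads per gene, without normalization. The counting program, its use of strand and its handling of reads with several matches are not given in the sources used here, so reads of near-identical genes could have been split between them. Both tables hold 12654 genes, and 0 columns were left unmatched.

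From these counts, CPM were derived in R 4.3.3 using edgeR 4.0.16 and TMM scaling within each tissue, and log2 CPM with a prior count of 2. Each comparison was fitted by itself on the whole table with filterByExpr, edgeR's quasi-likelihood test and Benjamini-Hochberg adjustment over all genes tested, with a threshold of 0.05. The F statistic and the log2 fold change gave its standard error. The test was checked on simulated counts. The alternatives were other scalings, no filter, at least 10 counts in every library, DESeq2 1.42.0, one fit of 3 castes, the replicate number as a block, the library size class as a term, the muscle genes left out of the totals, and each library left out. Fits within one size class and without both brain libraries richest in muscle reads were added after seeing the data. Correlations were tested by exact permutation.

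Ovary libraries held 1663266 to 23882325 counts and brain libraries 1339043 to 12917125. The floor was set at 3 reads. Before TMM scaling this is 1.80 CPM for the ovary library with the fewest counts and 2.24 CPM for the brain library with the fewest. Without molecular identifiers these floors, and the exact 95% binomial intervals given for shares, account for counting error alone. Same-caste libraries differed by more than sampling noise (smallest chi-square over degrees of freedom 8.14 among ovaries and 2.60 among brains), and 0 pairs were identical.

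The members and the gene lists were chosen with earlier results of these data known. Protein names came from the study's gene table, of which a shortened version was at hand. It names 3328 of the 12654 genes (26.3%) from rows of its fat body and brain comparisons, so the muscle lists hold only the genes named there. The genes named are the 7 muscle genes, up to 4 further genes per muscle list and tissue with the highest mean log2 CPM, and 8 genes per tissue whose levels followed the mean of the 7 most closely, among genes with a mean of at least 3 log2 CPM. Marker genes of the neuronal, germline, hemocyte and fat body lists are named outside this rule. In the RefSeq gene table (Hsal_v8.6), 12632 identifiers were found, and no coordinates were taken from it, since the reads were aligned to another genome version. Columns of the authors' own comparisons were not used. Same-numbered libraries were taken as paired where every pair's deviations correlated at over 0.1, which held only between the ovary and brain of revertants (0.154 to 0.262). The labels do not say that a number marks one ant.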

Additional observations from a re-analysis of the deposited data

Results flagged for a closer look

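Of the values of the 7 muscle genes and their shares, 6 lay far from the other libraries of their group of 4, by Dixon's test at the 95% level, out of 48 groups tested, and chance alone flags about 1 group in 20. In gamergate brain 3, paramyosin was the highest of 4 at 8.01 log2 CPM, Mlp84B the highest at 4.99 log2 CPM and actin, muscle the lowest at −0.97 log2 CPM, a value that stands for no read. The share of the 7 muscle genes was 0.0370% of the counts in gamergate brain 3 and 0.00957% in revertant brain 1, both the highest of their groups. In worker ovary 3, actin, muscle was the lowest of 4 worker libraries at 4.07 log2 CPM, and this was also the 1 worker ovary with more than 3500000 counts.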

How the results depend on the processing

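The 7 muscle genes kept their direction in the ovary comparisons of castes under all settings run. The single called value that changed sign was troponin T between gamergate and revertant brains, when library size class entered the fit. It was at −0.71 there (standard error 1.08, adjusted p = 0.792 from edgeR). Only the workers had brains of both size classes, so the size term rested on them and the sign is not settled. Uncalled brain values of the other genes also changed sign there. Of the other 23 muscle genes, the number higher in gamergate than worker ovaries was 1 with no filter and 0 to 1 with a library left out (1 without worker 3). The number higher than in revertant ovaries was 0 with upper quartile or library size scaling, 2 when size class entered the fit, 2 within larger libraries, and 1 to 2 with a library left out (2 without revertant 4). Between gamergate and worker brains, 0 were higher with upper quartile or library size scaling, with at least 10 counts in every library and without both gamergate 3 and worker 4, and 0 to 1 with one library left out. The number lower there was 1 with DESeq2, 1 when size class entered the fit, 1 within smaller libraries, and 0 to 2 with one library left out (2 without worker 4). Between gamergate and revertant brains, 2 were higher in one fit of 3 castes, and 0 were higher and 0 lower when size class entered the fit. Paramyosin between these brains passed the threshold under 3 of the other scalings and filters. The cause was not tested. Over all genes, the 28 higher and 61 lower in gamergate than worker brains became 100 and 232 with DESeq2, 119 and 232 in one fit of 3 castes, and 124 and 120 when size class entered the fit, but 11 and 41 with at least 10 counts in every library and 19 and 32 with the replicate block. The share in gamergate ovaries was 0.00683% on TMM-scaled totals. Pairs of muscle genes with a correlated level numbered 13 over all 8 revertant and worker ovaries, whose size classes stand apart so that the number cannot be read beyond that split, with 8 to 13 when a library was left out, 0 to 1 in larger brains and 0 to 8 in smaller brains. Scaling by library size only moved the median of all genes between gamergate and worker ovaries to −0.18, between gamergate and revertant ovaries to −0.11, between gamergate and revertant brains to 0.17, between revertant and worker brains to −0.12, and between ovary and brain to 0.40 in revertants and 0.30 in workers.

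With the replicate number as a block, 0 of the other 23 genes were higher in gamergate than worker brains, and troponin T was higher in worker ovaries than worker brains at 2.43 (adjusted p = 0.0272 from edgeR), although numbers did not pair the samples in either comparison. Same-numbered libraries paired by the check of the data in the comparison of tissues in revertants, where the block changed no call among the 7 genes. Depth limits troponin C, actin, muscle and LOC105181811 in the brain, whose reads lay near the floor.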
